A study of Mus musculus with 8 samples.

Results

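Complement is a cascade of plasma and cell-surface proteins that marks particles for uptake. Its central step is the cleavage of C3, by convertases built from C4b and C2 (classical and lectin pathways) or from C3b and factor B (alternative pathway, stabilised by properdin). Cleavage of C3 and C5 releases the small peptides C3a and C5a, which attract and activate phagocytes through the receptors C3AR1 and C5AR1. C5AR2 is a second receptor for C5a. Membrane proteins such as CD55 take convertases apart on host cells. Myeloid cells, dendritic cells among them, make several of these factors themselves and carry the receptors.

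Of the 55487 genes in the count table, 8 genes of this system were examined, chosen by their symbols: C3, C4b, Cfb (factor B), Cfp (properdin), the receptors C3ar1, C5ar1 and C5ar2, and the regulator Cd55. C1q was left aside. They were measured in 4 libraries of untreated bone marrow-derived dendritic cells (BMDC) and 4 libraries of BMDC-fer, the same kind of culture after uptake of ferroptotic Jurkat cells and a sort for cells that had engulfed them. All cells were wild type, from C57/bl6 mice per the labels (C57BL/6J females, 6 to 8 weeks old, per the study's methods), and were grown from bone marrow with GM-CSF at 20 ng/ml for 10 days per the labels. Jurkat is a human T-cell leukemia line. Per the study's methods the Jurkat cells had received 0.5 µM ML162, a GPX4 inhibitor that triggers ferroptosis, for 14 h, and the co-culture lasted 4 h. A sort is described for BMDC-fer only, so cargo, co-culture and sort cannot be told apart in this comparison. The methods also state that not all cells of such cultures carry the dendritic cell marker CD11c.

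Library totals were between 39326672 and 50532209 counts. In both groups replicates 1 and 2 stood apart from replicates 3 and 4 (the first and second principal components of log2 CPM held 39.9% and 38.5% of the variance), so the changes of the 7 tested complement genes are also given within these replicate pairs. Levels are CPM (reads of the gene scaled by library size) after TMM scaling, and a gene was called when edgeR's quasi-likelihood test gave a Benjamini-Hochberg adjusted p at or below 0.05 and the log2 fold change was at least 0.58 in size. The dendritic cell markers on a list of 10 genes were all detected and tested, with 3 repressed (Flt3, Ccr7 and Irf4) and 0 induced. With the replicate number as a block 7 of them were repressed (also Zbtb46, H2-Ab1, Cd74 and Cd209a) and Clec9a was induced. Their summed level was 6635 to 14812 CPM in BMDC, against 3118 to 7277 CPM in BMDC-fer. Cd74 made up 44.9% to 66.1% of these sums. Without it they were 2815 to 5236 CPM in BMDC, against 1560 to 2466 CPM in BMDC-fer. Of 10 macrophage markers 1 was repressed (Adgre1) and 0 were induced, with sums of 15087 to 30399 CPM in BMDC, against 26842 to 37269 CPM in BMDC-fer. Lyz2, which other myeloid cells also express, made up 78.3% to 91.5% of these sums, and without it they were 2584 to 3587 CPM in BMDC, against 3194 to 4783 CPM in BMDC-fer. Of 10 neutrophil markers 6 were repressed (10 with the block), with sums of 46.5 to 265 CPM in BMDC, against 14.6 to 44.2 CPM in BMDC-fer. Mast cell and basophil markers (6 genes, 3 tested, 0 called and, with the block, Cpa3 repressed) summed to 32.5 to 64.9 CPM in BMDC, against 14.5 to 33.0 CPM in BMDC-fer. Mouse T-cell markers, the lineage of the human cargo, were a list of 10 genes, of which 5 were tested. They summed to 40.2 to 47.1 CPM in BMDC, against 35.7 to 56.9 CPM in BMDC-fer. Of the 5 tested, 2 were repressed (3 with the block) and 0 induced. Bcl11b was at 0 in every library. Cd28 made up 63.2% to 93.2% of the T-cell sums. Without it they were 6.36 to 16.0 CPM in BMDC, against 3.89 to 8.30 CPM in BMDC-fer. In bulk samples fewer cells of a type and less RNA per cell cannot be told apart, and the part of these marker shifts in the results on complement genes was not tested.

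Genes for the 3 receptors of C3a and C5a were induced in BMDC-fer, while the genes for C3, factor B, properdin and CD55 were not called. C3ar1, C5ar1 and C5ar2 rose 2.24-, 2.37- and 3.55-fold in mean CPM. Of the 8 genes, 7 passed the filter on low counts, and of these 3 were induced and 0 repressed, in edgeR as in DESeq2. Of the other 4, 0 had an unadjusted edgeR p under 0.05, a threshold for which the share of all tested genes is not given. Over all 15411 tested genes, 9.38% were called, 3.47% as induced and 5.91% as repressed. The median log2 fold change was 0.40 over the 7 tested complement genes and 0.00069 over all tested genes. The groups did not overlap for 3 of the 7, where 22.9% of all tested genes showed no overlap. With the replicate number as a block, 2 of the 7 were called (C3ar1 and C5ar1), where 13.0% of tested genes were.

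The 3 receptor genes were all induced, so bases before their RefSeq starts are shown. The sequences are from RefSeq (GRCm38.p6, minus strand, 5′ to 3′) and leave out annotated exons. Capitals mark matches to 2 motifs, TGANTCA (AP-1) and TTGCNNAA (C/EBP), out of 7 motifs searched. For C5ar1 the RefSeq start is 16259338, inside the GENCODE span of the gene, so its stretch is intronic in the transcripts that begin at 16259540. C5ar2 has a further RefSeq start downstream, which is not shown.

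C3ar1, chr6:122856162-122856381: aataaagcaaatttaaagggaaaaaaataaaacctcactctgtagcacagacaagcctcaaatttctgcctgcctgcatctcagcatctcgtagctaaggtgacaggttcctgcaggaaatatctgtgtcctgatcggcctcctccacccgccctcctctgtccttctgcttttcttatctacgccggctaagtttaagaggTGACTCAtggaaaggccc

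C5ar1, chr7:16259339-16259512: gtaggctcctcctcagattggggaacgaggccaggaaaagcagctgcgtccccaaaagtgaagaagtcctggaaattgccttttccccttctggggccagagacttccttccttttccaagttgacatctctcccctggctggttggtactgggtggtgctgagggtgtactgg

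C5ar2, chr7:16244155-16244374: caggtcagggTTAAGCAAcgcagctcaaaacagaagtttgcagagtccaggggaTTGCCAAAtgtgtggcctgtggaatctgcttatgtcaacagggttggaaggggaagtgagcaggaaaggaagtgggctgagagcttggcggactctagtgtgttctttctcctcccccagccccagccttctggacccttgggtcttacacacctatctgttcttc

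Windows from 250 bases before to 50 after the start were matched for 6 of the 8 genes, and none for Cfb and C4b. Both strands were searched for the motifs, which were picked after the expression values were seen. The AP-1 letters lay at -22 to -16 from the start of C3ar1 and occurred in 7.79% of all promoter windows. The C/EBP letters lay at -210 to -203 and -166 to -159 of C5ar2 and at -45 to -38 of C3, and occurred in 10.8% of windows. Cfp held the NRF2 letters TGACNNNGC at -90 to -82, as did 12.4% of windows. The letters for PU.1 (GAGGAAGT), NF-kB (a form of 10 letters), CRE (TGACGTCA) and an E-box (CACGTG) were in 0 of the 7 windows of these genes and in 3.11%, 0.415%, 1.80% and 7.17% of all windows. A match is only a match of letters.

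C3ar1 encodes the receptor for C3a and spans bases 122847138 to 122856161 of chromosome 6 (GRCm38, as are all positions here, from GENCODE M21). Its level was 173, 215, 106 and 98.0 CPM in BMDC replicates 1 to 4 and 288, 356, 317 and 367 CPM in BMDC-fer replicates 1 to 4. Every BMDC-fer library lay above every BMDC library, and the 2 lowest values were BMDC replicates 3 and 4. The means were 148 ± 55.9 and 332 ± 36.3 CPM (SD, n = 4 each), and the fitted log2 fold change was 1.16, with a standard error of 0.25 (adjusted p = 0.0235 by edgeR). Within replicates 1 and 2 the log2 fold change was 0.74, and within replicates 3 and 4 it was 1.76, a difference with an edgeR adjusted p of 0.00370 in the interaction test. Of all tested genes, 1.75% had a higher log2 fold change.

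C5ar1 encodes the main signalling receptor for C5a and lies on chromosome 7 from 16246743 to 16259540. It was at 105, 132, 58.4 and 60.0 CPM in BMDC replicates 1 to 4 and at 223, 256, 179 and 185 CPM in BMDC-fer replicates 1 to 4. The groups did not overlap, and in both groups replicates 1 and 2 were the higher ones. The means were 88.7 ± 35.9 and 211 ± 35.8 CPM (SD, n = 4 each), and the fitted log2 fold change was 1.25, with a standard error of 0.28 (adjusted p = 0.0251 by edgeR). The rise was 1.02 on the log2 scale within replicates 1 and 2 and 1.63 within replicates 3 and 4 (edgeR interaction, adjusted p = 0.0171). With the replicate number as a block the adjusted p of C5ar1 was 0.00651 and that of C3ar1 was 0.0219 (edgeR).

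C5ar2 encodes the second C5a receptor, which does not couple to G proteins, and lies beside C5ar1 on chromosome 7 from 16234585 to 16244154. Its level was 6.34, 7.58, 2.81 and 2.44 CPM in BMDC replicates 1 to 4 and 7.75, 11.6, 25.8 and 23.0 CPM in BMDC-fer replicates 1 to 4. BMDC-fer replicate 1 lay just above the highest BMDC library, and BMDC-fer replicates 3 and 4 were far above all others. The means were 4.79 ± 2.56 and 17.0 ± 8.69 CPM (SD, n = 4 each), and the fitted log2 fold change was 1.83, with a standard error of 0.49 (adjusted p = 0.0454 by edgeR). The larger rise was in replicates 3 and 4. There the log2 fold change was 3.22 (edgeR adjusted p = 2.37e-07), against 0.48 in replicates 1 and 2 (adjusted p = 0.163), and the effects differed (edgeR interaction, adjusted p = 0.000246). With the replicate number as a block C5ar2 was not called (edgeR adjusted p = 0.0990).

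For each of the 3 receptor genes the two-sided exact permutation test gave p = 0.0286, the smallest that 4 against 4 libraries allow. The test treats the libraries as exchangeable, without regard to replicate number or replicate pair. Its value here follows from the lack of overlap between the groups, which 22.9% of all tested genes showed. The calls of the 3 receptor genes depended on single libraries and on the scaling. C3ar1 lost its call without BMDC replicate 3 or BMDC-fer replicate 2, 3 or 4, C5ar1 without BMDC replicate 3 or 4 or BMDC-fer replicate 1, 2 or 4, and C5ar2 without BMDC replicate 1, 3 or 4 or BMDC-fer replicate 2, 3 or 4, with edgeR adjusted p-values up to 0.0724, 0.0690 and 0.120. With library totals in place of TMM factors their log2 fold changes lay between 1.04 and 1.69. The edgeR adjusted p-values were then 0.0539, 0.0546 and 0.0711, so 0 genes of the 7 were called. DESeq2 with its own scaling called 3. With library totals 3 of the 7 had an unadjusted edgeR p under 0.05. The share of all tested genes under that limit is not given, so the count is not read as a result. Over all tested genes library totals gave 1479 calls, against 1445 with TMM.

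**Figure D1:**
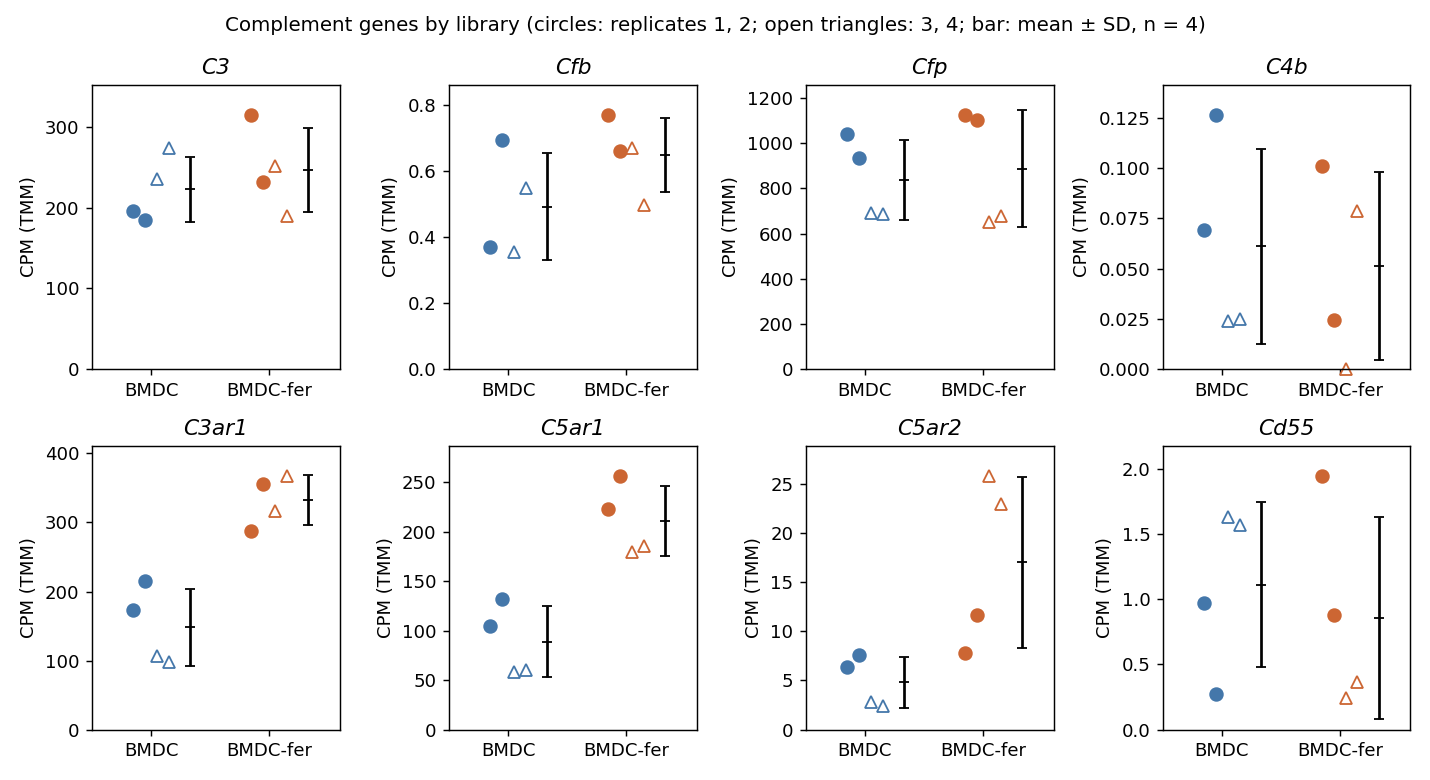
Level of each of the 8 complement genes in each library (y axis, CPM after TMM scaling, from 0) for BMDC and BMDC-fer, with filled circles for replicates 1 and 2, open triangles for replicates 3 and 4 and bars for the mean ± SD of 4 libraries. C3ar1, C5ar1 and C5ar2 show no overlap between the groups, while Cfp and Cd55 split by replicate pair.

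The balance between the C5a receptors differed by replicate pair. Per kilobase of exon, C5ar1 was 22.9, 24.1, 28.7 and 34.0 times C5ar2 in BMDC replicates 1 to 4. In BMDC-fer it was 39.8 and 30.5 times C5ar2 in replicates 1 and 2, and 9.65 and 11.2 times in replicates 3 and 4. The ratio thus lay below all BMDC values in BMDC-fer replicates 3 and 4 only. These ratios were looked at after the values were seen and were not tested.

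C3 encodes the protein on which all complement pathways converge and lies on chromosome 17 from 57203970 to 57228136. Its level was 196, 185, 235 and 274 CPM in BMDC replicates 1 to 4 and 314, 232, 251 and 189 CPM in BMDC-fer replicates 1 to 4. The groups overlapped, with means of 222 ± 40.5 and 247 ± 51.9 CPM (SD, n = 4 each). The log2 fold change of C3 was 0.15 (standard error 0.18, edgeR adjusted p = 0.610), but the replicate pairs differed in sign. It was 0.53 in replicates 1 and 2 (edgeR adjusted p = 0.0454, under the fold threshold) and -0.19 in replicates 3 and 4 (adjusted p = 0.212), and the effects differed (edgeR interaction, adjusted p = 0.0372).

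Cfp encodes properdin, the protein that stabilises the alternative convertase, and lies on chromosome X from 20925454 to 20931555. Its level was 1039, 934, 692 and 685 CPM in BMDC replicates 1 to 4 and 1124, 1102, 649 and 678 CPM in BMDC-fer replicates 1 to 4. Replicates 1 and 2 were above replicates 3 and 4 in both groups, and the groups as a whole overlapped. The means were 837 ± 177 and 888 ± 259.8 CPM (SD, n = 4 each), and the fitted log2 fold change was 0.085, with a standard error of 0.24 (adjusted p = 0.837 by edgeR). Replicates 1 and 2 gave 0.18 and replicates 3 and 4 gave -0.040, and this difference did not pass (edgeR interaction, adjusted p = 0.162). The sign also turned negative with library totals (-0.025) and without BMDC-fer replicate 1 or 2.

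Cfb encodes factor B, whose fragment Bb is the protease of the alternative convertase, and lies on chromosome 17 from 34856374 to 34862518. It had 16, 33, 15 and 22 counts in BMDC replicates 1 to 4 and 38, 27, 28 and 19 counts in BMDC-fer replicates 1 to 4. The groups overlapped, with means of 0.492 ± 0.162 and 0.650 ± 0.113 CPM (SD, n = 4 each). The log2 fold change of Cfb was 0.40 (standard error 0.30, edgeR adjusted p = 0.405), 0.43 in replicates 1 and 2 and 0.39 in replicates 3 and 4. Of its exon bases, 79.5% also belong to the overlapping gene Gm20547 on the same strand, which had 0 counts in every library. How the counting treated reads in those shared bases is not given in the sources used here, so the level of Cfb is uncertain.

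Cd55 encodes decay-accelerating factor, a membrane protein that dissociates convertases, and lies on chromosome 1 from 130439027 to 130462744. BMDC replicates 1 to 4 had 42, 13, 69 and 63 counts of it, and BMDC-fer replicates 1 to 4 had 96, 36, 10 and 14. In CPM these were 0.968, 0.274, 1.63 and 1.57, then 1.94, 0.881, 0.240 and 0.366. Each BMDC-fer library was above its same-numbered BMDC library in replicates 1 and 2 and below it in replicates 3 and 4. Over all libraries Cd55 was not called (log2 fold change -0.36, standard error 0.71, edgeR adjusted p = 0.765). Within replicates 1 and 2 its log2 fold change was 1.22 (edgeR adjusted p = 0.188), and within replicates 3 and 4 it was -2.39 (adjusted p = 0.000298). The difference of -3.61 had an edgeR adjusted p of 0.00827 in the interaction test. Of the 50-base words of the longest Cd55 transcript, 10.9% also occur in the paralog Cd55b, which had 0 counts in every library.

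C4b encodes complement component 4 and lies on chromosome 17 from 34728380 to 34743882. It had 3, 6, 1 and 1 counts in BMDC replicates 1 to 4 and 5, 1, 0 and 3 counts in BMDC-fer replicates 1 to 4, and it did not pass the filter. A library with 0 counts of a gene allows up to 3 counts of it, or 0.0607 to 0.0785 CPM depending on the library, for counting error only. C4b averaged 0.061 CPM over the BMDC libraries and 0.051 CPM over those of BMDC-fer, so no fold is given and no difference was detectable at this depth. Of the 50-base words of its longest transcript, 35.2% also occur in C4a, so counts of the pair are uncertain. C4a had between 67 and 125 counts per library and its log2 fold change was -0.49 (adjusted p = 0.106 by edgeR).

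Within the pairs of replicates, 2 of the 7 tested genes were called in replicates 1 and 2 (C3ar1 and C5ar1), where 19.4% of all tested genes were called. In replicates 3 and 4, 4 of the 7 were called (C3ar1, C5ar1, C5ar2 and Cd55), where 35.7% of all tested genes were. The effect differed between the replicate pairs for 5 of the 7 (C3, C3ar1, C5ar1, C5ar2 and Cd55), as it did for 37.8% of all tested genes (edgeR interaction, adjusted p of 0.05 or less). The spread behind these tests is that between 2 libraries of a group.

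**Figure D2:**
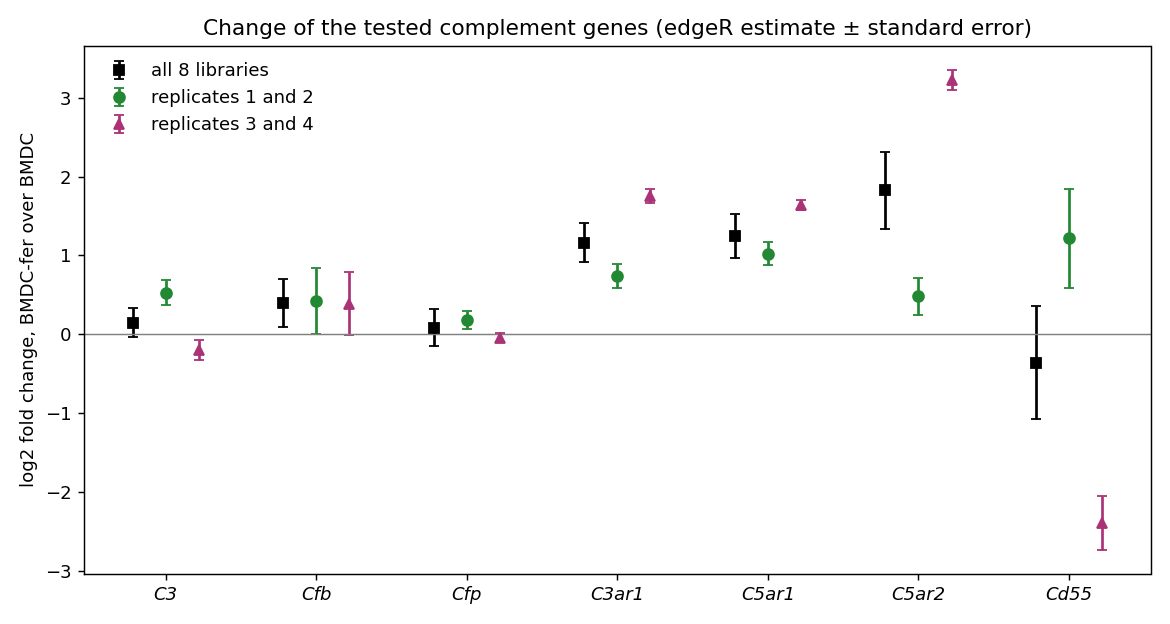
Log2 fold change of BMDC-fer over BMDC (y axis, edgeR estimate ± standard error) for the 7 tested complement genes, over all 8 libraries (squares), replicates 1 and 2 (circles) and replicates 3 and 4 (triangles). C3ar1 and C5ar1 lie above 0 in both replicate pairs, C5ar2 rises from 0.48 to 3.22 between them and Cd55 lies on opposite sides of 0.

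Levels were compared between genes only per length, as CPM per kilobase of merged exons. In BMDC the order was Cfp (482 ± 102), C3 (43.2 ± 7.87), C5ar1 (34.5 ± 13.95), C3ar1 (34.4 ± 12.98), C5ar2 (1.35 ± 0.718), Cd55 (0.229 ± 0.131), Cfb (0.174 ± 0.0572) and C4b (0.0107 ± 0.0085; SD, n = 4 each). The ranges of neighbours overlapped for C3 and C5ar1, C5ar1 and C3ar1, and Cd55 and Cfb. The place of Cfb in either order is uncertain, as 79.5% of its exon bases also belong to Gm20547. Reads in those bases may not have been counted for it, while its full exon length was used. In BMDC-fer C5ar1 (82.0 ± 13.9) and C3ar1 (77.2 ± 8.44) stood above C3 (47.97 ± 10.1), and their ranges, which overlapped each other, did not reach that of C3. Cfp stayed at the top (512 ± 149.6, n = 4), with 0.617% of tested genes higher in BMDC-fer and 0.656% in BMDC. C5ar1 and C3ar1 were exceeded by 9.84% and 9.88% of tested genes in BMDC and by 4.46% and 4.76% in BMDC-fer, while C5ar2 went from 70.3% to 44.7%.

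**Figure D3:**
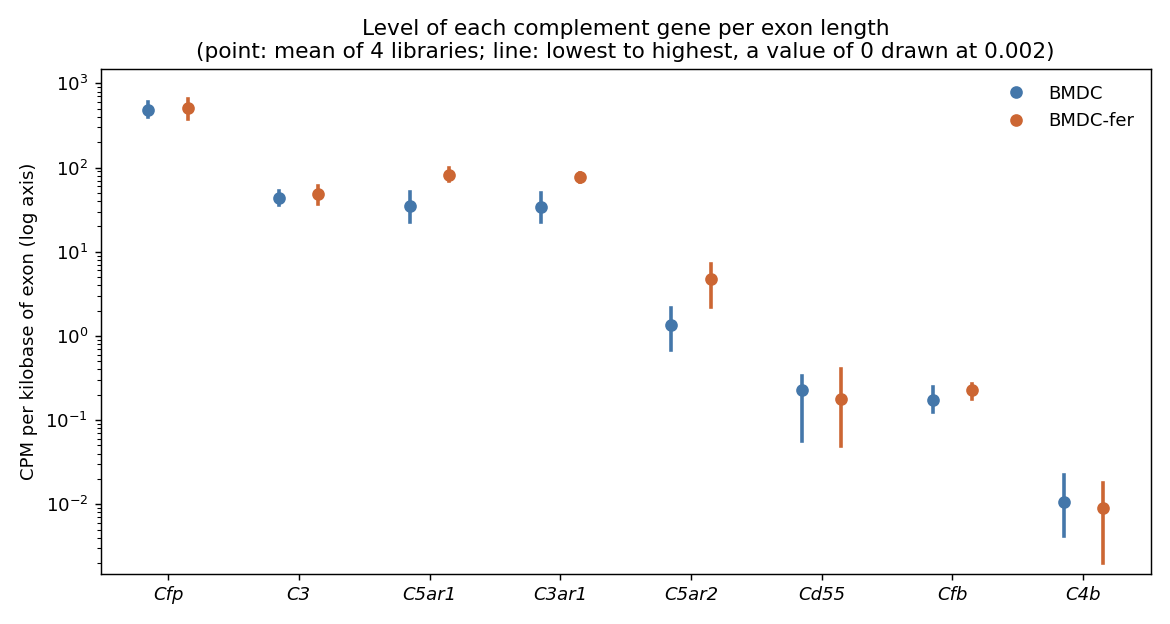
Level of the 8 complement genes per kilobase of exon (log axis) in BMDC and BMDC-fer, with points for the mean of 4 libraries and lines from the lowest to the highest library. Cfp is highest in both groups, and the lines of C5ar1 and C3ar1 lie above that of C3 in BMDC-fer only. The level of Cfb is uncertain, as 79.5% of its exon bases also belong to Gm20547.

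Of 53 other genes of the complement system, 26 were tested, 0 were induced, 2 were repressed and 24 were not called (edgeR, median log2 fold change 0.20 over the 26). The 2 called genes compare with 9.38% called over all tested genes, and with 5.91% as repressed. At an unadjusted edgeR p under 0.05 there were 5 genes (Susd4, Masp1, Colec12, C4a and Fcnb). The share of all tested genes at that threshold is not given, so this count is not read as a result. DESeq2 called 3 (Susd4, Masp1 and, as induced, Colec12), where it called 2261 of all 15411 tested genes. Susd4, which encodes a membrane inhibitor of complement, was at 20.6, 13.0, 10.6 and 8.68 CPM in BMDC replicates 1 to 4 and at 4.51, 3.21, 2.13 and 2.72 CPM in BMDC-fer replicates 1 to 4. The groups did not overlap, and Susd4 fell by 2.07 on the log2 scale (standard error 0.33, edgeR adjusted p = 0.00822). It fell by 2.11 in replicates 1 and 2 and by 1.98 in replicates 3 and 4, and it kept its call whichever of the 8 libraries was left out. Masp1, which encodes a protease of the lectin pathway, was at 18, 11, 12 and 19 counts in the BMDC libraries and at 8, 3, 4 and 6 in the BMDC-fer libraries (replicates 1 to 4 of each). It fell by 1.49 on the log2 scale (edgeR adjusted p = 0.0423), but when single libraries were left out its call held in 1 of 8 fits, the one without BMDC replicate 2, and the adjusted p reached 0.106. Replicates 1 and 2 gave a log2 fold change of -1.38 and replicates 3 and 4 gave -1.55. Masp1 was also not called in the fit without the filter on low counts (edgeR adjusted p = 0.105). It passed that filter through the BMDC libraries only, as every BMDC-fer library lay under the cutoff of 0.236 CPM. Its place among the tested genes thus came from the group in which it was higher.

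By role, 12 of the 18 genes that start the classical and lectin pathways were tested, with Masp1 repressed and 11 not called. The C1q chains belong here, with log2 fold changes of 0.54 for C1qa, 0.57 for C1qb and 0.47 for C1qc (edgeR adjusted p between 0.329 and 0.355). In the replicate pairs these were 0.62 and 0.43, 0.57 and 0.61, and 0.59 and 0.27, with calls for C1qa and C1qc in replicates 1 and 2 and for C1qb in replicates 3 and 4. Of 11 membrane regulators 7 were tested and Susd4 was repressed. Among those not called was Cr1l, which encodes Crry, the widely expressed mouse inhibitor of C3 convertases, with means of 69.4 ± 7.11 CPM for the BMDC libraries and 78.1 ± 4.76 CPM for those of BMDC-fer (SD, n = 4 each). Of 6 receptor genes 4 were tested and 0 called, including Itgam and Itgb2, the chains of complement receptor 3 (log2 fold changes 0.34 and 0.30). Itgam differed between the replicate pairs (edgeR interaction, adjusted p = 0.0146), with a log2 fold change of 0.71 and a call in replicates 1 and 2 (adjusted p = 0.0174 by edgeR) and 0.020 in replicates 3 and 4. Itgb2 had 0.45 and 0.22 there. Of 10 soluble regulators 2 were tested and of 7 terminal components 1, with 0 called. Cfd, the protease that activates factor B, had at most 2 counts in any library. Hc, which encodes C5, the source of the C5AR1 and C5AR2 ligand, was at 4, 3, 2 and 9 counts in the BMDC libraries (replicates 1 to 4) and at 1, 0, 2 and 0 in the BMDC-fer libraries.

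With the replicate number as a block 5 of the 26 tested genes of this list were called, 2 induced and 3 repressed, where 13.0% of all tested genes were called. Besides Susd4 and Masp1 they were Colec12, a scavenger receptor collectin (log2 fold change 1.17, edgeR adjusted p = 0.00917), Thbd, thrombomodulin (0.80, 0.0318), and Fcnb, ficolin B (-1.38, 0.0360). Each of the 5 had the same sign in both replicate pairs. The block fit on these same libraries favours changes that agree between replicates, so this is no separate support.

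**Figure D4:**
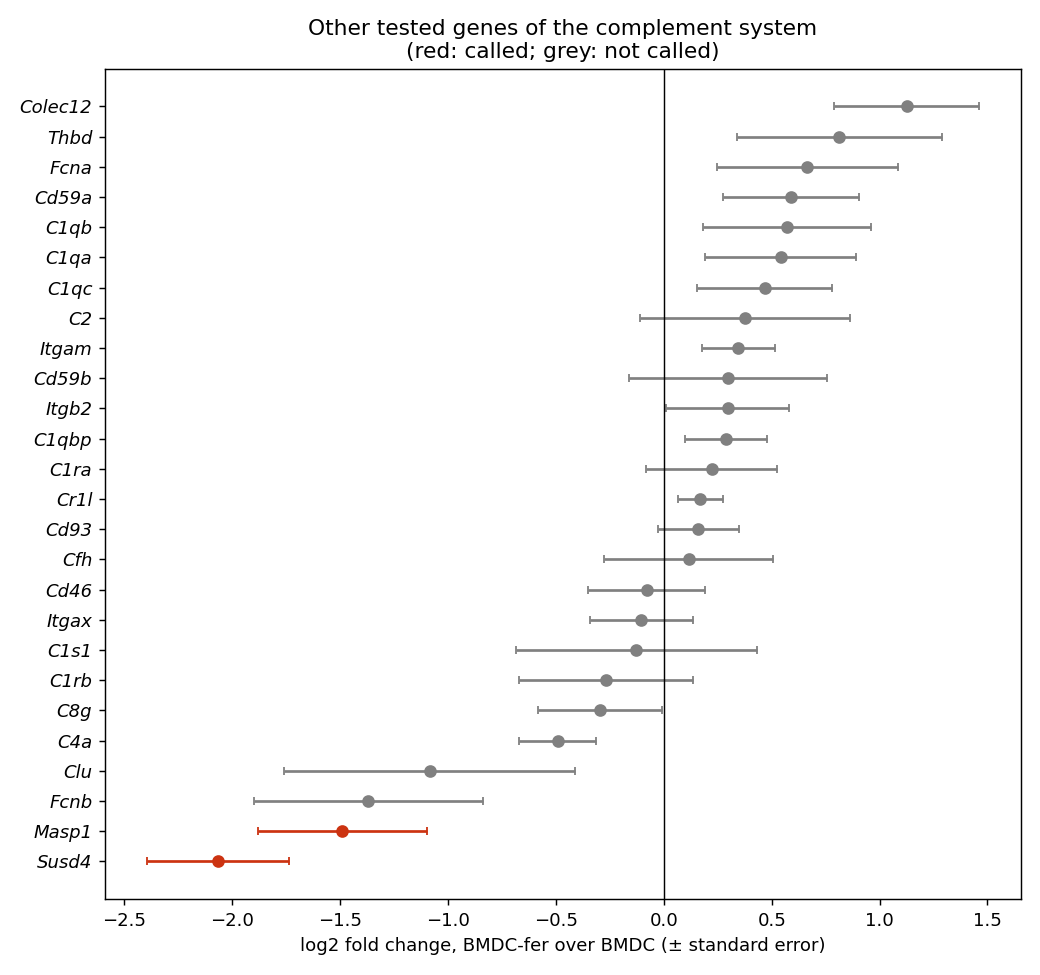
Log2 fold change of BMDC-fer over BMDC (x axis, edgeR estimate ± standard error, 8 libraries) for the 26 other tested genes of the complement system, with called genes in red. Susd4 and Masp1 are the called genes, at -2.07 and -1.49, and 16 of the 26 lie above 0.

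The genes whose log2 level followed each receptor gene most closely over the 8 libraries were, among 8912 genes of at least 10 CPM, Sh3gl1 and Dusp3 for C3ar1 (Pearson r of 0.991 and 0.990), Pla2g15 and Ahsa1 for C5ar1 (0.995 and 0.994), and Dgcr2 and Tbck for C5ar2 (both 0.992). Pla2g15 encodes a lysosomal phospholipase and Dusp3 a dual-specificity phosphatase. For Cfp they were Lpcat2 and Dhx58 (0.988 and 0.987) and for Cd55 Lrrfip2 and Mrpl37 (0.984 and 0.980). C3 and Cfb were matched less closely, by Ccdc43 and Clec5a (0.912 and 0.893) and by Sntb2 and Gatb (0.901 and 0.875). These values describe 8 libraries that share the group and replicate pair differences. They are the highest among the genes searched, so high values come with the search. A high r is not a like fold. Dgcr2 averaged 29.9 CPM in BMDC and 37.3 in BMDC-fer, and Tbck 14.4 and 19.4, where C5ar2 averaged 4.79 and 17.0.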

How the data were processed

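The values are raw counts of mouse genes as the authors deposited them, 1 column per library, made by HISAT2 alignment and featureCounts (Rsubread) and used here without change. The labels name the build mm10. Versions, annotation, the use of strand and the treatment of reads that map or overlap more than once are not given in the sources used here, and human counts were not analysed here. GENCODE M21 (GRCm38) gave a symbol for 55227 of the 55487 identifiers. Groups and replicate numbers came from the sample labels. The range of library totals is in the report, and a floor of 3 counts was used.

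The model was fitted with edgeR 4.0.16 under R 4.3.3 (TMM, filterByExpr with a count minimum of 10, quasi-likelihood test, Benjamini-Hochberg adjustment over all 15411 tested genes), with the thresholds of the study's methods. The standard error is the log2 fold change divided by the root of F. Alternatives were DESeq2 1.42.0 (the tool of the study), the replicate block, a replicate pair term, 3 other scalings, 2 other filters, each replicate pair alone, each library left out and no fold threshold. Same-numbered libraries deviated together (r across genes between 0.313 and 0.446). The split of replicates 1 and 2 from replicates 3 and 4 can by itself give such values, and values for libraries of unlike number are not given. Pairing by number in the replicate block was therefore an assumption. No replicate pair agreed within sampling noise (chi-square per gene at least 9.00). The permutation test used log2(CPM + 0.05). Scripts were tested on simulated counts.

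The complement genes and all lists were chosen with earlier results of these data known. Genes named are the 8 genes, called genes of the complement list, and the 2 most alike genes of each tested one. Others, among them the genes called with the block, Cr1l, Itgam, Itgb2, C4a, Cfd, Hc and the C1q chains, were named after their values were seen.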

Additional observations from a re-analysis of the deposited data

Results flagged for a closer look

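The effect of BMDC-fer differed between the replicate pairs for 5 of the 7 tested complement genes (adjusted p at or below 0.05 for the interaction term in edgeR). It did so for 37.8% of all tested genes. The log2 fold change in replicates 3 and 4 minus that in replicates 1 and 2 was 2.74 for C5ar2, 1.01 for C3ar1, 0.60 for C5ar1, -0.73 for C3 and -3.61 for Cd55. Among the 26 other tested genes of the complement system 3 also differed, set against the same 37.8% of all tested genes. They were Clu (-1.40), Itgam (-0.69) and C1qbp (-0.51), each with the lower value in replicates 3 and 4. C3ar1, C5ar1 and C5ar2 had the larger rise in replicates 3 and 4, where their BMDC libraries were the lowest. In 0 of 16 groups of 4 libraries did 1 library lie far from the others by Dixon's test, where chance gives 0.8.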

How the results depend on the processing

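The number of complement genes called (3) was 0 with library totals in place of TMM factors. It was between 0 and 3 with 1 library left out. DESeq2, the other scalings and filters and the replicate pair term each gave 3. Other complement system genes called (2) numbered 5 with the replicate block or the replicate pair term and between 1 and 2 with 1 library left out. The stricter filter (1 CPM in 4 libraries) gave 1 and dropped Masp1. Within replicates 1 and 2 the number was 6, where 19.4% of all tested genes were called. Within replicates 3 and 4 it was 7, where 35.7% were. Without the filter the count was also 2, but with C8a in place of Masp1. Over all tested genes (1445) DESeq2 called 2261, the pair term 2815, replicates 1 and 2 alone 3062, replicates 3 and 4 alone 5604, and fits without 1 library between 565 and 1440. The log2 fold change reversed for C3 (-0.19) and Cfp (-0.040) in replicates 3 and 4, for Cd55 (1.22) in replicates 1 and 2, and for Cfp with library totals (-0.025) and without 1 library (from -0.039 to 0.21). C3ar1, C5ar1, C5ar2 and Cfb kept their direction in every setting that gave a value, and the replicate block changed the call of C5ar2 alone among the 7 tested. With the longest transcript as the length, 6 of the 8 genes kept their place in the BMDC-fer order. Causes were not tested. Depth limits C4b, at 0 to 6 counts.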

Other observations

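The level of the C3 transcript relative to that of its receptor was examined after the values were seen. Per kilobase of exon, C3 was 0.947, 0.719, 1.85 and 2.34 times C3ar1 in BMDC replicates 1 to 4 and 0.913, 0.545, 0.664 and 0.431 times in BMDC-fer replicates 1 to 4. The BMDC-fer value was below that of the same-numbered BMDC library in all 4 replicates, by a small margin in replicate 1. Without pairing by number, which was an assumption, the groups overlapped, as BMDC-fer replicate 1 lay above BMDC replicate 2. The ratio holds the C3ar1 values given above, so it is no separate result, and it was not tested.

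C8a, which encodes a chain of the membrane attack complex, did not pass the filter. It had 12, 17, 3 and 7 counts in BMDC replicates 1 to 4 and 0 in every BMDC-fer library. With a floor of 3 counts in each BMDC-fer library, its mean was 3.09-fold lower in BMDC-fer. This value allows for counting error in BMDC-fer only. BMDC replicate 3 lay at the floor itself, and the BMDC mean rested mostly on the libraries with 12 and 17 counts. The fit without the filter gave an edgeR adjusted p of 0.0208. C8a was singled out after its values were seen, and that p comes from the same values, so it is not read as a result.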
